A study of Rattus norvegicus with 4 samples.

Results

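The genes described here encode splicing factors and hnRNPs: SR proteins, heterogeneous nuclear ribonucleoproteins, proteins of the small nuclear ribonucleoproteins (snRNPs), subunits of the SF3A and SF3B complexes and PRPF factors. They were taken by symbol, as those that begin with Srsf or Prpf and a digit, with Hnrnp or Snrp, or with Sf3a or Sf3b, from the probe sets that the platform annotation gives exactly 1 symbol. This gave 58 genes, on 94 probe sets, of 14217 genes on the array, and each gene was represented by its probe set with the highest mean signal. Expression was measured with a rat Affymetrix array in the ventral prostate lobe of male F344 rats aged 6 weeks, an inbred laboratory strain. The PhIP group received 300 mg/kg of PhIP, a heterocyclic amine carcinogen formed when meat is cooked, and the control group was not given it. Both groups were killed 2 days later, and the labels do not say what the controls received in place of PhIP. Each group held 4 rats, and every array carried pooled RNA from 2 of them. The arrays are called control 1, control 2, PhIP 1 and PhIP 2. A replicate is a pool of 2 rats, and p-values measure the spread between such pools.

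A newly made transcript is bound by proteins that decide where introns are cut. hnRNPs coat the transcript and often block splice sites, while SR proteins bind exons through RNA recognition motifs and recruit the spliceosome through domains rich in arginine and serine. The spliceosome itself is built from snRNPs, each a small RNA with its proteins, which in most of them include a ring of Sm proteins. SF3A and SF3B hold the U2 snRNP on the branch point. Several PRPF factors bring in the U4/U6.U5 tri-snRNP or remodel the complex for catalysis, while others, such as Prpf40b, are associated with the U1 snRNP. The ventral prostate is a secretory gland, with luminal epithelial cells surrounded by a stroma of smooth muscle and fibroblasts.

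Signals are linear MAS5 intensities. They were compared as log2(signal + 10), and a fold change is the PhIP mean minus the control mean on that scale, given ± its standard error from limma (n = 2 arrays per group). The 2 control arrays differed more than the 2 PhIP arrays did: across 18625 tested probe sets, log2 values correlated at r = 0.972 between the controls and 0.987 between the PhIP arrays, and control 2 had the lowest correlation with each PhIP array (0.967 and 0.964). The ratio of 3′ to 5′ signal for Gapdh, a measure of RNA integrity, was 2.06 on control 2 and between 1.34 and 1.45 on the other arrays. For beta-actin it was 4.18 (control 1), 5.71 (control 2), 3.93 (PhIP 1) and 3.49 (PhIP 2), so both controls were above both PhIP arrays. Marker lists for the tissue also moved with the groups. Of 14 measured luminal epithelial markers, 12 were higher in PhIP, with summed signals of 33798 and 31599.1 for the controls against 36555.5 and 37060.4 after PhIP. All 10 smooth muscle markers were lower (6893 and 6929.5 against 4197 and 4149), all 9 fibroblast markers were lower, and all 11 measured markers of proliferating cells were higher (1580 and 1390 against 2441 and 2884). Skeletal muscle markers were lower in 6 of 6 tested (median -1.33), adipocyte markers in 3 of 3 (-0.88), endothelial markers in 5 of 5 (-0.43) and basal epithelial markers in 4 of 4 (-0.17), while 3 of 5 leukocyte markers were higher (0.23). The skeletal muscle sum also set the controls apart, at 932.5 on control 1, 1682 on control 2 and 508 and 439.9 on the PhIP arrays. No marker on these 9 lists had a signal of 0. The part of these shifts in the results on splicing genes was not tested, and in whole tissue fewer cells of a type cannot be told apart from less RNA per cell.

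No splicing factor or hnRNP gene passed the adjusted test 2 days after PhIP. Of the 58 genes, 57 lay above the filter on dim probe sets, and 0 of these passed an adjusted p of 0.05 in limma's moderated test (lowest adjusted p = 0.232, for Srsf7-ps4). In the same test 0.00952% of 10506 genes did, so with 2 arrays per group few genes of any kind passed, and a p that misses the threshold does not show that levels were alike. The log2 fold changes of the 57 ran from -0.62 (Snrpn) to 0.55 (Hnrnpf), and 46 of them (80.7%, against 73.9% of all genes) lay within 0.3 of 0 in either direction. The median size of the fold change without its sign was 0.16 for members and 0.17 for all genes, but members were brighter (median signal 324, against 117). By mean signal it was 0.256 for members against 0.231 for all genes under 100, and 0.135 against 0.141 from 100 to 500. Over 500 it was 0.175 for 18 members against 0.111 for all genes. At an unadjusted p under 0.05 there were 10 members (17.5%), against 14.6% of all genes. Of these 10, 7 were higher in PhIP (12.3% of members, against 6.12% of all genes) and 3 were lower (5.26%, against 8.51%).

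**Figure D1:**
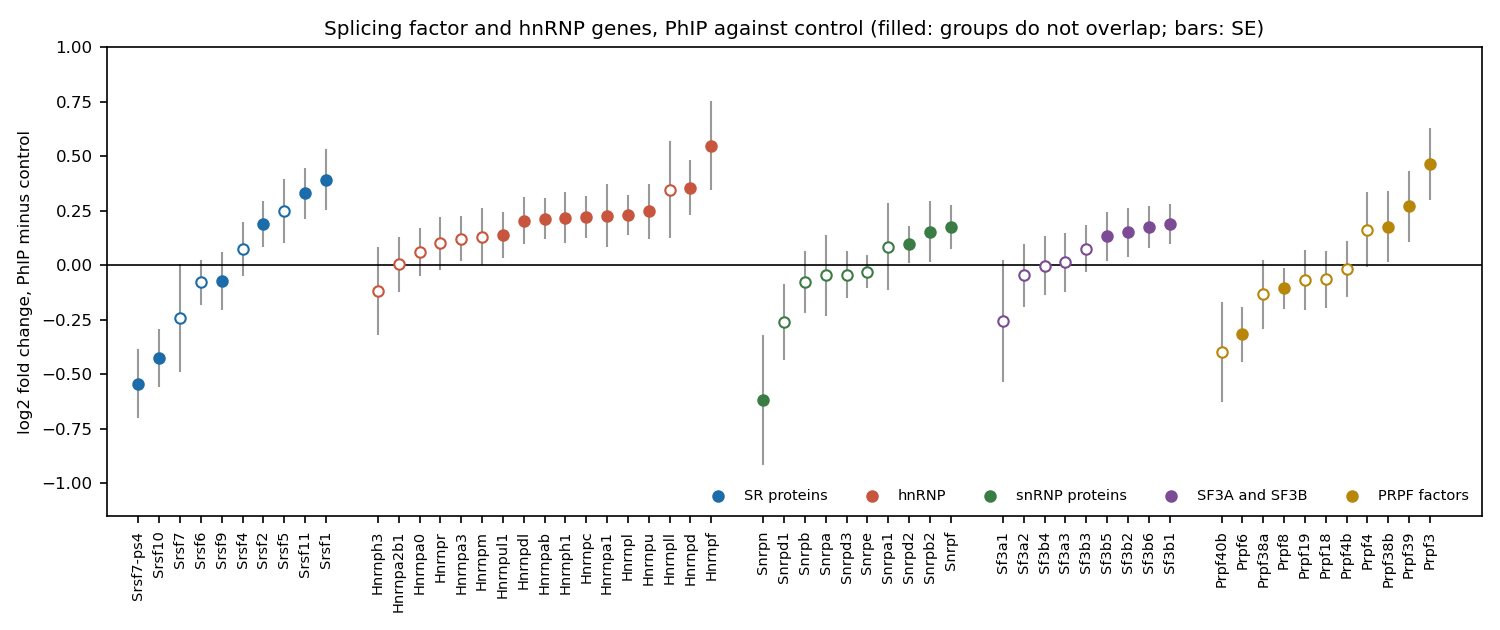
Log2 fold change of PhIP against control for each of the 57 tested genes, on the vertical axis, grouped by family; bars are standard errors from limma, and filled points are genes whose groups do not overlap. Of the 17 hnRNP genes, 16 lie above 0, while the other families shown spread to both sides.

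The families differed in how their values were spread, as the plot of log2 fold changes by family shows. Of the 57 genes, 35 (61.4%) had a value above 0, against 45.9% of all genes, and the median was 0.095, against -0.026 for all genes. Both PhIP arrays lay above both controls for 23 members (40.4%; 21.6% of all genes) and below both for 6 (10.5%; 27.0% of all genes). The median log2 fold change was 0.21 over 17 hnRNP genes, 0.076 over 9 SF3A and SF3B genes and 0.00067 over 10 SR genes. It was -0.037 over 10 snRNP genes and -0.064 over 11 PRPF genes. The 10 SR genes include Srsf7-ps4, annotated as a pseudogene, at -0.54. How the arrays are put on one scale sets the split between higher and lower. After centring each array on its median signal, 19 of the 57 members were higher and 1 lower at an unadjusted p under 0.05. Of all genes, 16.1% were higher and 3.78% lower in that setting. After scaling to the hybridization controls 28 members were higher and 0 lower, against 23.3% and 2.06% of all genes. These scalings moved the median of all genes to 0.11 and 0.20 and that of the members to 0.23 and 0.32, since both shift all genes alike. The members' median stood 0.12 above that of all genes as reported, and 0.083 with quantile normalization, 0.087 with cyclic loess, 0.074 without control 2 and 0.17 without control 1.

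The hnRNP genes were, as a family, the highest in PhIP. Of the 17, 16 had a log2 fold change above 0 (94.1%, against 45.9% of all genes). The groups did not overlap in 10 of the 17, all higher, against 21.6% of all genes on the higher side. Hnrnpf, whose protein binds G-rich RNA, had signals of 486 (control 1), 298 (control 2), 543 (PhIP 1) and 583 (PhIP 2). Control 2 was well below the other 3 arrays, and the log2 fold change of 0.55 ± 0.20 (adjusted p = 0.332) was the highest of all members. It was 0.20 without control 2 and 0.89 without control 1. Hnrnpd, which encodes AUF1, a regulator of the decay of AU-rich messages, had 383 (control 1), 312 (control 2), 447 (PhIP 1) and 443 (PhIP 2). The PhIP arrays lay above both controls and close to each other, with a log2 fold change of 0.36 ± 0.13 (adjusted p = 0.311). Hnrnpl, whose protein binds CA repeats and regulates alternative exons, had 1399 (control 1), 1221 (control 2), 1494 (PhIP 1) and 1572 (PhIP 2), a log2 fold change of 0.23 ± 0.092 (adjusted p = 0.362). Hnrnpc, a core component of the particles on nascent RNA, had 553 (control 1), 569 (control 2), 673 (PhIP 1) and 639 (PhIP 2). Here both controls were alike, and the log2 fold change was 0.22 ± 0.095 (adjusted p = 0.383). These 4 were the hnRNP genes under an unadjusted p of 0.05 (23.5% of 17, against 6.12% of all genes on the higher side).

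**Figure D2:**
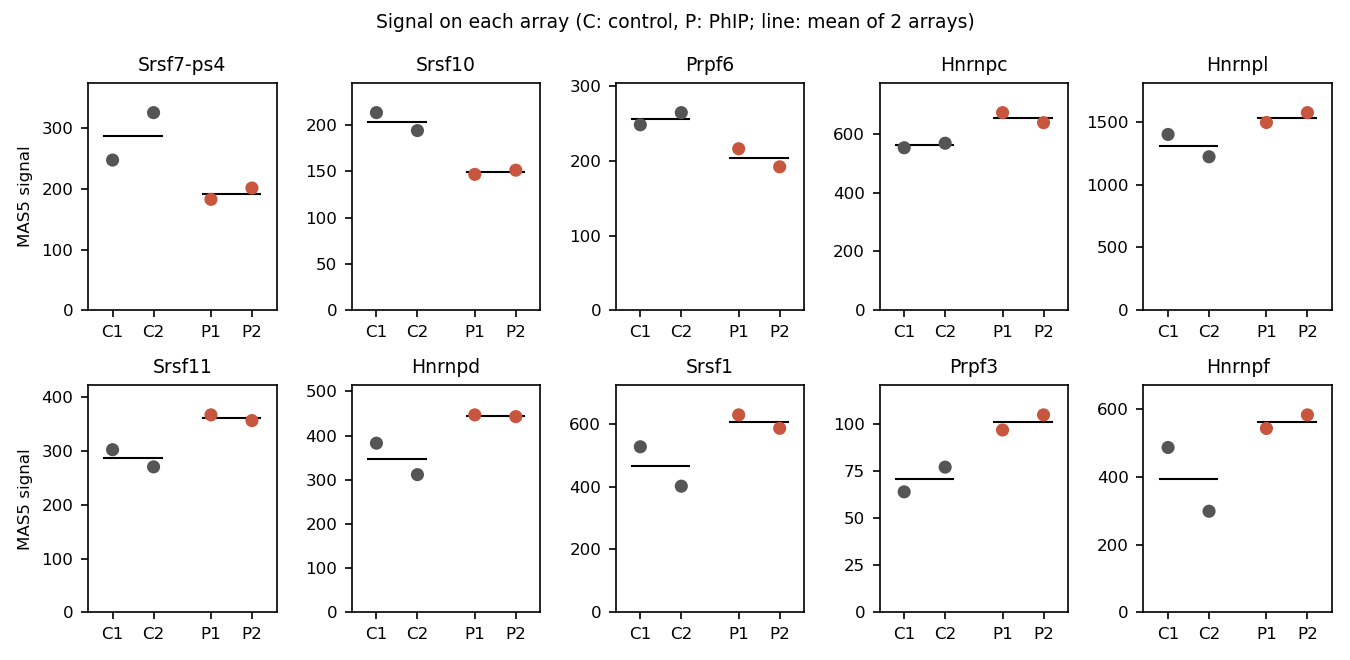
MAS5 signal on each of the 4 arrays for the 10 members with an unadjusted limma p under 0.05; points are arrays (C1 and C2 control, P1 and P2 PhIP), lines are the means of 2 arrays, and each vertical axis starts at 0. In all 10 the groups do not overlap, and the controls lie further apart than the PhIP arrays in all but Hnrnpc and Prpf6.

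Further hnRNP genes had groups that did not overlap. Hnrnpab, which encodes an RNA-binding protein of the A/B type, had signals of 1198 (control 1), 1080.1 (control 2), 1262 (PhIP 1) and 1381 (PhIP 2) (0.21 ± 0.093, unadjusted p = 0.052 in limma's test). Hnrnpu, whose protein also organises chromatin, had 745 (control 1), 593 (control 2), 826 (PhIP 1) and 757 (PhIP 2) (0.25 ± 0.13). Hnrnph1, a G-tract-binding relative of Hnrnpf, had 481 (control 1), 406 (control 2), 523 (PhIP 1) and 509 (PhIP 2) (0.22 ± 0.12). In all 3 the PhIP arrays were above both controls. Hnrnpdl, a relative of Hnrnpd, had 319 (control 1), 311 (control 2), 367 (PhIP 1) and 361 (PhIP 2), with arrays of a group almost level (0.20 ± 0.11). Its dimmer probe sets stood at -0.081 ± 0.18 and -0.15 ± 0.25, with overlap. Hnrnpa1, one of the most studied splicing repressors, had 255 (control 1), 199.6 (control 2), 262 (PhIP 1) and 270.1 (PhIP 2) (0.23 ± 0.14, adjusted p = 0.538). The dimmer probe sets of Hnrnpa1 stood at -0.023 ± 0.17 and -0.058 ± 0.14, with overlap. Many processed copies of this gene are known, so its probe sets may not be specific.

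The remaining hnRNP genes did not separate or separated by little. Hnrnpa2b1, which recognises sorting signals in RNA and N6-methyladenosine marks, had 1564 (control 1), 1246 (control 2), 1291 (PhIP 1) and 1518 (PhIP 2). The groups overlapped fully, with a log2 fold change of 0.0041 ± 0.13. Hnrnpa3, a close relative, had 1769.5 (control 1), 1454 (control 2), 1755 (PhIP 1) and 1739 (PhIP 2), and its control 1 lay above both PhIP arrays (0.12 ± 0.10). Hnrnph3 was the only hnRNP gene with a value below 0, with 87.5 (control 1), 126 (control 2), 87.2 (PhIP 1) and 106 (PhIP 2) (-0.12 ± 0.20). Log2 fold changes of the others were 0.35 ± 0.22 for Hnrnpll, the activation-induced regulator of T cell splicing, 0.14 ± 0.11 for Hnrnpul1, 0.13 ± 0.13 for Hnrnpm, 0.10 ± 0.12 for Hnrnpr and 0.061 ± 0.11 for Hnrnpa0. Of these 5, the groups did not overlap in Hnrnpul1.

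The hnRNP values depended on which control array they were set against. Of the 17 genes, 14 had their lowest value of the 4 arrays on control 2, against 24.5% of all genes tested, and the median difference of control 2 from control 1 was -0.25 on the log2 scale, against 0.048 over all genes. Set against control 1 alone, the median log2 fold change of the hnRNP genes was 0.099 and 13 of 17 were above 0. Set against control 2 alone it was 0.26, and 9 of the 17 passed an adjusted p of 0.05, among 13 members in all (11 higher, 2 lower). In that fit 12.7% of all probe sets passed, and control 2 stood as a single array assumed to vary as the PhIP pair does. Without either PhIP array, 0 hnRNP genes were under an unadjusted p of 0.05, with medians of 0.20 and 0.19. Control 2 was also the array with the highest 3′ to 5′ ratio and the highest skeletal muscle signal: Myl1, a myosin light chain gene, stood at 306 there and 5.2 on control 1, and Myh4, a fast myosin gene, at 165 and 0.5. The part of either in this pattern was not tested.

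**Figure D3:**
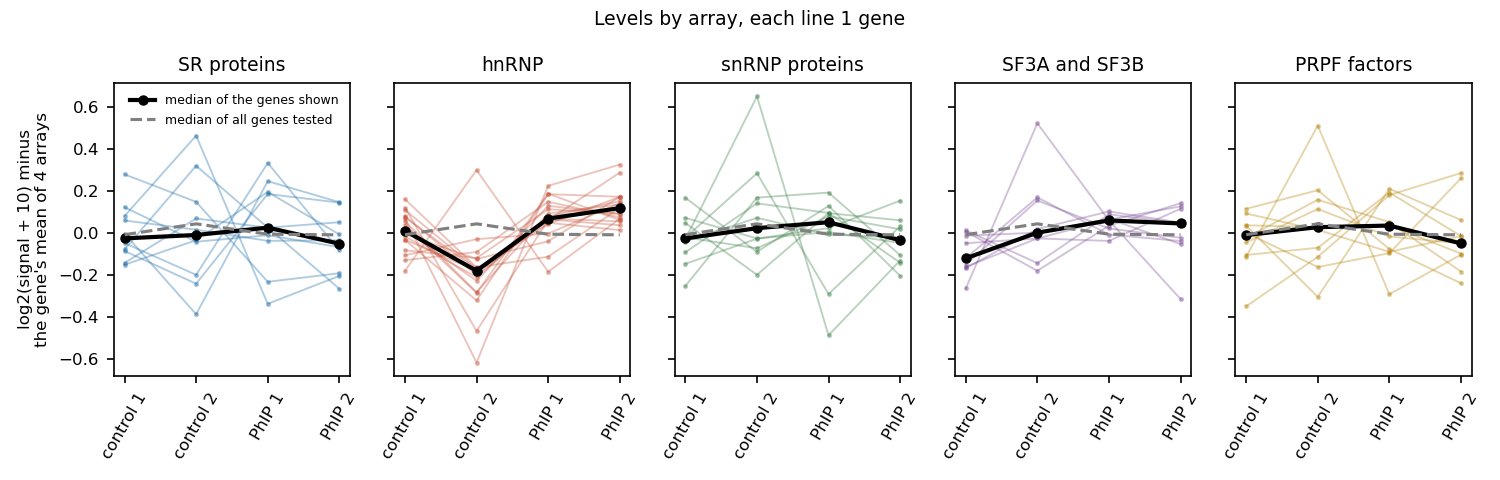
Log2(signal + 10) on each array minus the gene's mean over the 4 arrays, with 1 thin line per gene, 1 panel per family, the family median in black and the median of all genes tested as a dashed grey line. The hnRNP median is -0.18 on control 2 and 0.010 on control 1, while the all-gene median is 0.043 on control 2.

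Most hnRNP promoters held a CCAAT box. RefSeq promoters (assembly GRCr8, 250 bases before to 50 after the first listed start) were at hand for 55 of the 58 members. This box, which binds the factor NF-Y, was searched on both strands as CCAAT and was found in 14 of 16 hnRNP promoters, against 38.2% of 8696 promoters of tested genes and 37.7% of all 27457 promoters in the table. It was in 6 of 11 PRPF, 5 of 10 snRNP, 4 of 10 SR and 1 of 8 SF3 promoters. The box was 1 of 8 motifs searched, and a match is a description of the letters and not a site of binding. The promoters of the 3 hnRNP genes with CCAAT under an unadjusted p of 0.05 are shown with those of Srsf1 and Srsf10, which also hold it and stood on opposite sides; capitals mark CCAAT or its reverse complement.
Hnrnpf, chr4:152755418-152755717, plus strand: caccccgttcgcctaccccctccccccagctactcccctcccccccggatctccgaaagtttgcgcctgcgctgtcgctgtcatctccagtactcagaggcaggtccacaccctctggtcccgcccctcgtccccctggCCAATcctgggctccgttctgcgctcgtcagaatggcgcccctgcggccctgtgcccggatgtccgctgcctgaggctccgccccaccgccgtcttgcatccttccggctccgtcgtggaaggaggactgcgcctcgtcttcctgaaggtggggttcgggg
Hnrnpl, chr1:93228151-93228450, plus strand: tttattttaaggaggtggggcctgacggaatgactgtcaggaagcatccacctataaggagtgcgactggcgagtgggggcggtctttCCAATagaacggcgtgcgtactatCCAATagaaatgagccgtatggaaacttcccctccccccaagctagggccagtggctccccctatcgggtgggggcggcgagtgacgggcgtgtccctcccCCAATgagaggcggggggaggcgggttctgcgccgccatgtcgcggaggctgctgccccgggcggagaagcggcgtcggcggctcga
Hnrnpc, chr15:27282666-27282965, minus strand: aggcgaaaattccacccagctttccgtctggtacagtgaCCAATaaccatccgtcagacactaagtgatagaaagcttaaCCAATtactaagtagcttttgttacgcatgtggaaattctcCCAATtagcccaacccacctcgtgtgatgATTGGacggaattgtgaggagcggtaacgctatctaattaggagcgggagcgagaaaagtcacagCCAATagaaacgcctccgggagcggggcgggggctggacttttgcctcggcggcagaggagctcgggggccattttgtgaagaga
Srsf1, chr10:73336248-73336547, plus strand: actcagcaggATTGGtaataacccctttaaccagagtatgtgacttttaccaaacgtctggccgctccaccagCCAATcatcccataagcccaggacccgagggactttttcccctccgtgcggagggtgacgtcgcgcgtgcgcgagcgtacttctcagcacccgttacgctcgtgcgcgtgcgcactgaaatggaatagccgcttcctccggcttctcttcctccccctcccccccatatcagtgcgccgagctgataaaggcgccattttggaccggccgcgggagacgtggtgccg
Srsf10, chr5:153372066-153372365, plus strand: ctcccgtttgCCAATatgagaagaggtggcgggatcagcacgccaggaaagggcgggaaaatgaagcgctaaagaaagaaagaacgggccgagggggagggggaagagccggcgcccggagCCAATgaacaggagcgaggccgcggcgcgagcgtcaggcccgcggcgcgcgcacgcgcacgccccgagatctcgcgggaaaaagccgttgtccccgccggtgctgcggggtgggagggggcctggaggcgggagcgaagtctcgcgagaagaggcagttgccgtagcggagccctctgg
Hnrnpc held 5 boxes, Hnrnpl 3, Srsf1 and Srsf10 2 each and Hnrnpf 1. Hnrnpd, described above, held 0. Within the hnRNP family, the median log2 fold change was 0.17 over 14 genes with the box and 0.29 over 2 without it. Outside the family it was -0.047 over 15 genes with the box and 0.013 over 23 without it. Over all tested members it was 0.13 (29 with the box) and 0.075 (25 without). A link between the box and the fold changes was not tested.

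Of the other motifs, the GC box (GGGCGG) was in 32 of 55 members (58.2%, against 63.9% of tested genes), with 13 of 16 hnRNP, 8 of 10 SR, 4 of 8 SF3, 4 of 11 PRPF and 3 of 10 snRNP promoters. The ETS motif (CCGGAAG) was in 17 of 55 members, against 18.5%, with 4 of 8 SF3 and 2 of 16 hnRNP promoters. The E-box (CACGTG) was in 8 members (14.5%, against 9.68%), the TATA box (TATAAA) in 5 (9.09%, against 6.54%) and the YY1 motif (AAGATGGC) in 3 (5.45%, against 5.82%). The E2F motif of S phase genes (TTTCGCGC or TTTGGCGC) was in 1 member (1.82%, against 1.56%) and the cyclic AMP response element (TGACGTCA) in 0 (against 3.28%). All were searched on both strands.

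Among the SR genes, equal numbers stood on each side, with the pseudogene Srsf7-ps4 counted on the lower side. Srsf1, the founding SR protein (SF2/ASF), had signals of 526 (control 1), 401 (control 2), 628 (PhIP 1) and 585 (PhIP 2). The PhIP arrays lay above both controls, with a log2 fold change of 0.39 ± 0.14 (adjusted p = 0.311), and it was 0.20 without control 2. Srsf11, an SR-related protein of the early spliceosome, had 302 (control 1), 270.1 (control 2), 367 (PhIP 1) and 356 (PhIP 2) (0.33 ± 0.12, adjusted p = 0.308). Srsf2 (SC35), a marker of nuclear speckles, had 702 (control 1), 762 (control 2), 896 (PhIP 1) and 777 (PhIP 2), with the groups just apart (0.19 ± 0.11). Srsf5 stood at 0.25 ± 0.15 and Srsf4 at 0.075 ± 0.12, and in both the groups overlapped.

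On the lower side, Srsf10, an SR protein that represses splicing when it is dephosphorylated after heat shock, had signals of 214 (control 1), 194 (control 2), 147 (PhIP 1) and 151 (PhIP 2). Both PhIP arrays lay well below both controls, with a log2 fold change of -0.43 ± 0.13 (unadjusted p = 0.0125, adjusted p = 0.254). It was -0.49 without control 2 and -0.36 without control 1. Srsf7-ps4, annotated as a pseudogene of Srsf7, had 248 (control 1), 326 (control 2), 183 (PhIP 1) and 201 (PhIP 2) (-0.54 ± 0.16, adjusted p = 0.232). A probe set for a processed copy may also bind transcripts of its parent, so the value cannot be assigned to one or the other. The probe set of Srsf7 itself was dim, with 23.7 (control 1), 34.4 (control 2), 26.2 (PhIP 1) and 19.6 (PhIP 2), and its groups overlapped (-0.24 ± 0.25). Srsf6 had 626 (control 1), 558 (control 2), 570.1 (PhIP 1) and 548 (PhIP 2) (-0.079 ± 0.10), and Srsf9 stood at -0.074 ± 0.13. Srsf3 was the member that failed the filter: its only single-symbol probe set had 5.1 (control 1), 5.4 (control 2), 10.1 (PhIP 1) and 0.7 (PhIP 2), and its other 2 probe sets carry a second symbol and were not used. For the same reason Hnrnpk, Snrpc and Snrpg have no value here.

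The snRNP genes, with a median near 0, lay on both sides. Snrpe, an Sm ring protein, had signals of 1976 (control 1), 2137 (control 2), 2022 (PhIP 1) and 2003 (PhIP 2), overlapping groups and a log2 fold change of -0.030 ± 0.075, with the smallest standard error of all members. Snrpd2, also of the ring, had 969 (control 1), 935 (control 2), 1039.9 (PhIP 1) and 996 (PhIP 2) (0.095 ± 0.085). Snrpf, a further ring protein, stood at 0.18 ± 0.10 and Snrpb2, a U2 snRNP protein, at 0.15 ± 0.14, and in these 3 genes the PhIP arrays were above both controls. Snrpd1 had 153 (control 1), 192 (control 2), 126 (PhIP 1) and 159 (PhIP 2) and overlapping groups (-0.26 ± 0.17). Snrpn, an imprinted gene best known from brain, was dim on its single-symbol probe set, with 20.9 (control 1), 39.5 (control 2), 12.5 (PhIP 1) and 18.8 (PhIP 2), and its probe sets shared with Snurf were not used. Its log2 fold change of -0.62 ± 0.30 was the lowest of all members, with the largest standard error (adjusted p = 0.424). Between these, Snrpa1 stood at 0.085 ± 0.20, Snrpd3 at -0.044 ± 0.11, Snrpa at -0.047 ± 0.19 and Snrpb at -0.076 ± 0.14, all with overlap. None of the 10 snRNP genes was under an unadjusted p of 0.05 in limma's test, against 14.6% of all genes.

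Of the 9 SF3 genes, 4 had both PhIP arrays above both controls, against 21.6% of all genes, and all 4 encode SF3B subunits. Sf3b1, the largest SF3B subunit and a frequent target of cancer mutations, had 868 (control 1), 954 (control 2), 1015 (PhIP 1) and 1061 (PhIP 2). Both PhIP arrays were above both controls, with a log2 fold change of 0.19 ± 0.091 (unadjusted p = 0.073 in limma's test, adjusted p = 0.425). Sf3b6, which contacts the branch point region, had 1017 (control 1), 892 (control 2), 1037 (PhIP 1) and 1118 (PhIP 2) (0.17 ± 0.098). Sf3b2 (0.15 ± 0.11) and Sf3b5 (0.13 ± 0.11) also had no overlap, while Sf3b3 (0.076 ± 0.11) and Sf3b4 (-0.0027 ± 0.13) overlapped. Of the SF3A subunits, Sf3a3 stood at 0.013 ± 0.14 and Sf3a2 at -0.047 ± 0.14. Sf3a1 had 48.4 (control 1), 90.7 (control 2), 63.1 (PhIP 1) and 46.4 (PhIP 2) (-0.26 ± 0.28); control 2 was above the other 3 arrays, and without it the value was 0.14. At an unadjusted p under 0.05 there were 0 of the 9 genes, against 14.6% of all genes.

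Among the PRPF genes, Prpf3 and Prpf6, both tri-snRNP proteins, stood on opposite sides. Prpf3 had signals of 63.9 (control 1), 77 (control 2), 96.7 (PhIP 1) and 105 (PhIP 2), with the PhIP arrays above both controls (0.46 ± 0.17, adjusted p = 0.311). Prpf6, which bridges the U5 and U4/U6 particles, had 248 (control 1), 265 (control 2), 216 (PhIP 1) and 192 (PhIP 2), with the PhIP arrays below both controls (-0.32 ± 0.13, adjusted p = 0.359). Both kept their sign when any 1 array was left out. Prpf8, the scaffold at the catalytic centre, had 701 (control 1), 663 (control 2), 616 (PhIP 1) and 649.6 (PhIP 2) (-0.11 ± 0.095). Its groups did not overlap; after median centring, which shifts all genes alike, its value was 0.030, against 0.11 for the median of all genes. Prpf40b, a U1-associated factor, had 68.1 (control 1), 110.3 (control 2), 59 (PhIP 1) and 68.6 (PhIP 2), with control 2 far above the rest (-0.40 ± 0.23). Prpf38a had 119 (control 1), 136 (control 2), 126 (PhIP 1) and 105 (PhIP 2) (-0.13 ± 0.16), with overlap. The values of the others were 0.27 ± 0.16 for Prpf39, 0.18 ± 0.16 for Prpf38b, 0.16 ± 0.17 for Prpf4, -0.017 ± 0.13 for the kinase gene Prpf4b, -0.064 ± 0.13 for Prpf18 and -0.067 ± 0.14 for the ubiquitin ligase gene Prpf19.

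**Figure D4:**
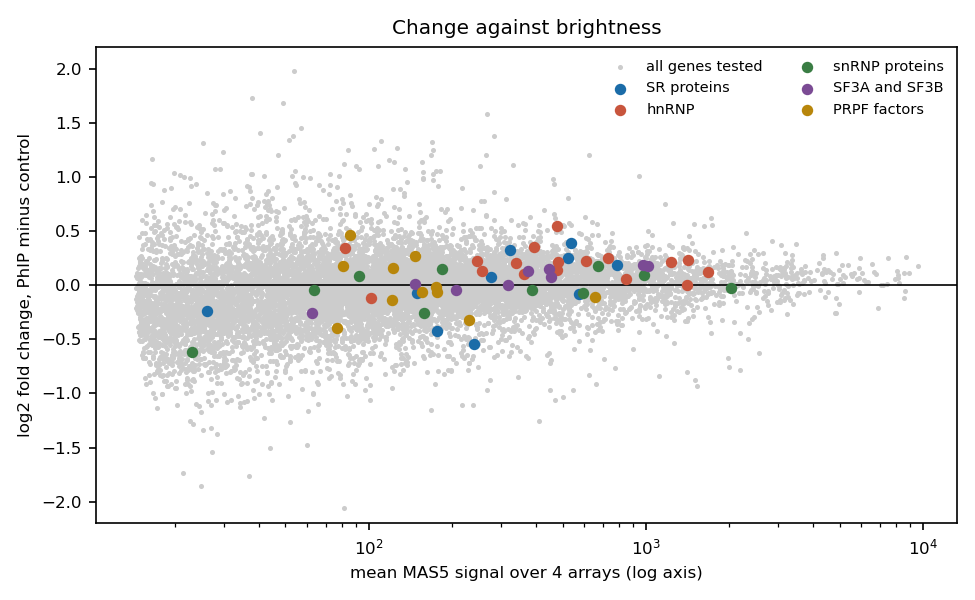
Log2 fold change of PhIP against control, on the vertical axis, against mean MAS5 signal over the 4 arrays on a log axis, for all genes tested (grey) and the members by family. Members with a signal above 500 lie mostly above 0 (14 of 18), and so do 60.7% of all genes in that range.

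Brighter probe sets had higher fold changes over the whole array. Over all genes, a mean signal under 100 went with a median log2 fold change of -0.11, a signal of 100 to 500 with 0.0038 and one over 500 with 0.044. The members followed the same order, with -0.047 over 9 genes, 0.075 over 30 and 0.18 over 18. Their median signal was 324, against 117 for all genes. In each of the 3 ranges the members' median was above that of all genes. Over the 57 members, the log2 fold change correlated with log2 mean signal at r = 0.41, and over all genes at r = 0.22; genes are not independent replicates, and the points share the 4 arrays.

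Of the 58 members, 19 had several probe sets, and 18 had at least 2 that were tested. In 10 of the 18 all tested probe sets had the same sign, and in 8 the signs differed: Hnrnpa1, Hnrnpdl, Hnrnph3, Prpf38b, Prpf4b, Sf3b2, Snrpd1 and Srsf6. No probe set of these 8 was under an unadjusted p of 0.05 in limma's test. Over all 18625 tested probe sets, 0.0268% passed an adjusted p of 0.05, 5.36% were higher and 7.61% lower at an unadjusted p under 0.05 (13.0% in either direction), 19.8% lay without overlap on the higher side and 26.0% on the lower, and 46.3% had a value above 0. Of genes with 1 sign, a dimmer Hnrnpa2b1 probe set had 299 (control 1), 152 (control 2), 320.3 (PhIP 1) and 356 (PhIP 2), a log2 fold change of 0.64 ± 0.27 (unadjusted p = 0.0446), while the brightest stood at 0.0041 ± 0.13. Control 2 was the low array again. A dimmer probe set of Hnrnpa3 had 258 (control 1), 184 (control 2), 286 (PhIP 1) and 297 (PhIP 2) (0.40 ± 0.17), against 0.12 ± 0.10 in the brightest. The second probe set of Srsf1 stood at 0.052 ± 0.18, that of Srsf11 at 0.044 ± 0.14, and the other tested one of Srsf10 at -0.034 ± 0.20, and in all 3 the groups overlapped. The groups were apart only on the brightest tested probe set of these 3 genes. Sf3b1 had 3 tested probe sets, from 0.16 ± 0.092 to 0.40 ± 0.24, and the groups did not overlap in any of them.

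**Figure D5:**
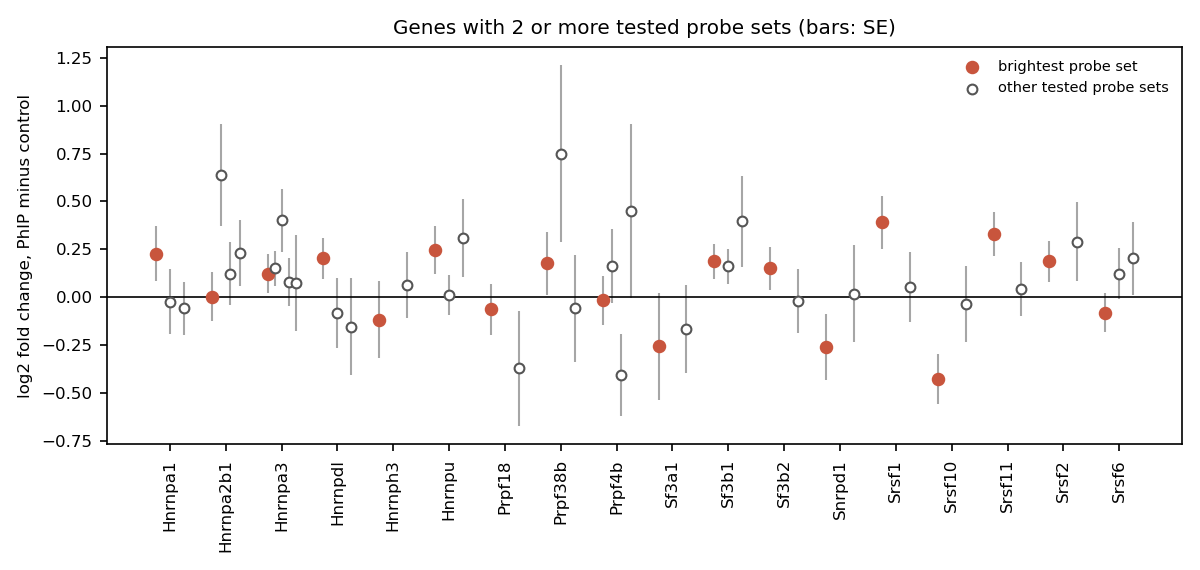
Log2 fold change with its standard error for every tested probe set of the 18 genes that have at least 2, the brightest filled and the others open. The probe sets of Sf3b1 lie together above 0, while those of Hnrnpa2b1, Srsf1, Srsf10 and Prpf4b are spread.

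Other genes of the splicing machinery, from lists of snRNP, spliceosome, regulator and export genes, also stood more often above 0 than below. Of 179 listed genes, 166 had a single-symbol probe set and 160 were tested, and 0 passed an adjusted p of 0.05 in limma's test. At an unadjusted p under 0.05, 14 were higher (8.75%, against 6.12% of all genes) and 7 lower (4.38%, against 8.51%). A value above 0 was found in 110 of the 160 (68.8%, against 45.9%), with a median of 0.083. By list it was found in 14 of 15 tri-snRNP and U5/U1 snRNP genes and 15 of 17 genes of SR-like proteins and SR kinases. Further lists had 12 of 15 (export, cap and exon junction), 7 of 9 (LSm ring) and 20 of 28 (helicases and catalytic factors). Among hnRNP-like genes it was 15 of 21, and among U2 and 3′ splice site genes 8 of 14. Genes of snRNP assembly had 6 of 12 and regulators of alternative splicing 13 of 29. At an unadjusted p under 0.05, 0 of 15 tri-snRNP and U5/U1 genes and 0 of 12 snRNP assembly genes were higher. Of the helicase and catalytic list it was 1 of 28. Genes for hnRNP-like proteins made up 7 of the 14 higher genes, out of 21 tested (33.3%, against 6.12% of all genes). Those with the lowest p were Matr3 and Pcbp2. Matr3, a nuclear matrix protein, had signals of 572 (control 1), 478 (control 2), 733 (PhIP 1) and 683 (PhIP 2), a log2 fold change of 0.43 ± 0.12 (adjusted p = 0.211). Pcbp2, a poly(C)-binding protein, had 1666 (control 1), 1676 (control 2), 2275 (PhIP 1) and 1937 (PhIP 2), a log2 fold change of 0.33 ± 0.092. The others named by the rule were Ilf2 (0.41 ± 0.14), Nono (0.29 ± 0.099) and Sfpq (0.48 ± 0.18), the last 2 partners in paraspeckles. Genes of mRNA export were Thoc7 (0.49 ± 0.12, adjusted p = 0.177) and Thoc2 (0.35 ± 0.14), both of the THO complex. Lsm8 of the U6 ring (0.50 ± 0.15), the spliceosome protein gene Syf2 (0.47 ± 0.15) and the SR kinase gene Clk1 (0.39 ± 0.13) completed the 10. On the lower side, Dhx8, the helicase that releases spliced mRNA, had 136 (control 1), 184 (control 2), 82 (PhIP 1) and 92.8 (PhIP 2), a log2 fold change of -0.79 ± 0.18 (unadjusted p = 0.00258, adjusted p = 0.155). Thoc5 stood at -0.50 ± 0.20 and Tra2a, an SR-like activator, at -0.34 ± 0.15.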

How the data were processed

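The deposited values are MAS5 intensities (linear signals) for 31099 probe sets on 4 arrays, per the submitters' processing notes, which give no version; each array had a 2% trimmed mean of 100.0. The scaling target is not given in the sources used here, nor are detection calls. The 57 manufacturer's control probe sets were left out. Signals were taken as log2(signal + 10), and the 18625 probe sets above the 40th percentile of mean log2 value were fitted in R 4.3.3 with limma 3.58.1 (lmFit, eBayes with trend; 2 residual and 5.67 prior degrees of freedom), two-sided, with Benjamini-Hochberg adjustment over all of them. The fit was tested on simulated data. Each group has n = 2 arrays, which limits the precision; an exact permutation test of 2 against 2 cannot go below p = 0.333 and was not used. All 58 members matched the RefSeq table (GRCr8) by Entrez identifier with the same symbol. Shares of all genes use 1 probe set per gene (10506). Signal on every array is given for the 12 members with the lowest p in each direction, the 2 with the highest signal per family and 8 fixed genes, of which Hnrnpk has no value and Srsf3 was not tested; of the other splicing genes, the 10 with the lowest p in each direction under 0.05 are named. The members and lists were chosen with earlier results of these data known. Alternatives covered the constant, filter, normalization, eBayes settings, a replicate block, each array left out and the mean of probe sets; leaving out Srsf7-ps4 was added after seeing the data. Python 3.11.15 with matplotlib 3.10.9 made the plots.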

Additional observations from a re-analysis of the deposited data

How the results depend on the processing

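The count of members past an adjusted p of 0.05 was 0 in 16 of 17 alternatives and ranged from 0 to 13 when 1 array was left out, the 13 coming without control 1. Leaving out 1 array gave 0 to 17 members higher and 0 to 7 lower at an unadjusted p under 0.05, and 3 to 32 and 3 to 18 for the other splicing genes; 0 members were higher and 0 lower without PhIP 1, and 1 and 1 without PhIP 2. After median centring, the counts higher and lower at an unadjusted p under 0.05 were 19 and 1 for members. They were 41 and 3 for other splicing genes, beside 16.1% and 3.78% of all genes. After scaling to the hybridization controls they were 28 and 0 and 63 and 1, beside 23.3% and 2.06% of all genes. The members' median under these scalings was 0.23 and 0.32. The 4 hnRNP genes higher at an unadjusted p under 0.05 became 2 with quantile normalization, cyclic loess or the replicate block, 9 after median centring and 0 without the intensity trend. Without the intensity trend, 1 member and 5 other splicing genes were higher, against 4.04% of all genes. Of these other genes, 4 were lower with the filter at the 60th percentile, against 7.67% of all genes. With the mean of probe sets 2 were lower, against 7.66%. Other constants, robust estimation and leaving out Srsf7-ps4 moved no count of members or other splicing genes by over 1.5 times, while the share of all probe sets past the adjusted p became 0.118% with the constant 20 and 0.279% with robust estimation. The replicate numbers gave no sign of pairing (correlation of deviations -0.056). With the replicate block 0 members passed, 5 were higher and 3 lower, against 5.36% and 7.75% of all genes.

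Of 31 members with values on every array, 22 kept their sign in all alternatives that measured them, and 24 when the 2 scalings that shift all genes alike are set aside (Prpf38a and Prpf8 turned under those alone). Hnrnpa2b1 turned to -0.027 with quantile normalization and -0.039 with cyclic loess. With each array on its median, and then with the hybridization controls as the scale, the values were 0.018 and 0.11 for Hnrnph3, 0.0033 and 0.095 for Prpf38a, 0.030 and 0.12 for Prpf8, 0.11 and 0.20 for Snrpe and 0.057 and 0.15 for Srsf6. With 1 array left out, Hnrnpa2b1 ranged from -0.16 to 0.17 (negative without control 2, -0.16, and without PhIP 2, -0.11), Hnrnpa3 from -0.018 to 0.26, Hnrnph3 from -0.36 to 0.12 (0.0081 without PhIP 1), Sf3a1 from -0.65 to 0.14, Snrpe from -0.086 to 0.027 and Srsf6 from -0.16 to 0.0026. The sign turned without control 2 for Hnrnpa3, Hnrnph3, Sf3a1 and Snrpe, and without control 1 for Srsf6. With the mean of probe sets, Hnrnpdl was -0.011 and Srsf6 0.082. The cause of these changes was not tested.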

Other observations

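Regulators of tissue-specific and alternative splicing stood above 0 about as often as all genes did. Of 29 tested, 13 had a log2 fold change above 0 (44.8%, against 45.9% of all genes), and at an unadjusted p under 0.05 in limma's test 0 were higher (against 6.12%) and 4 lower (13.8%, against 8.51%). Rbm24, a regulator of muscle splicing, had signals of 49.2 (control 1), 33.2 (control 2), 18.6 (PhIP 1) and 22.1 (PhIP 2) (-0.74 ± 0.24, adjusted p = 0.279). Rbpms, which is known from smooth muscle, had 91.1 (control 1), 82.2 (control 2), 68.5 (PhIP 1) and 59.1 (PhIP 2) (-0.39 ± 0.17). Elavl1 (HuR), which stabilises AU-rich messages, had 1009.7 (control 1), 1037 (control 2), 889 (PhIP 1) and 847 (PhIP 2) (-0.23 ± 0.085), and Rbfox3, the neuronal member of its family, was dim with 28 (control 1), 45.1 (control 2), 20.8 (PhIP 1) and 13.4 (PhIP 2) (-0.77 ± 0.27). In all 4 both PhIP arrays lay below both controls. Over the 29, the groups did not overlap in 8 on the lower side, against 27.0% of all genes. On the higher side they did not overlap in 8, against 21.6%. The 10 smooth muscle markers were lower beside them, with a median of -0.79, and their part in these values was not tested.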
